A study of Mus musculus with 24 samples.

Results

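The AP-1 transcription factors described here are 7 genes, Fos, Fosb, Fosl2, Jun, Junb, Jund and Atf3, taken by name from the 47729 genes measured in microglia sorted from mouse retinas. Each of them had counts in every group and passed the filter on low counts in the main fits. Under a stricter filter, of at least 50 counts in 5 sums, Jund was not tested in the trend over grades. The genes lie on GRCm38 (GENCODE annotation) at chr12:85473890-85477273 (Fos), chr7:19302696-19310051 (Fosb), chr5:32135801-32157842 (Fosl2), chr4:95049034-95052222 (Jun), chr8:84974484-84978718 (Junb), chr8:70698949-70700616 (Jund), chr1:191170296-191218039 (Atf3), and all are protein-coding. The files give Jund a length of 2878 bases, more than that interval holds, so the model counted for it differs from this annotation. Microglia are the resident macrophages of nervous tissue. They were sorted from single retinas as CD11b+, Ly6c- and Fcrls+ cells, with 100 to 600 cells per retina, and the RNA of each retina was sequenced as 1 library.

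There were 24 retinas of 15 animals, with 5 animals in each of 3 groups. DBA/2J mice carry Gpnmb-/- and Tyrp1b-/- and develop a glaucoma that follows an iris disease, and they gave 10 retinas at 12 months of age and 5 retinas, labelled as early disease, at 6 months. The control strain, here called Gpnmb+, is Gpnmb+/+ on the same background, also carries Tyrp1b-/-, and gave 9 retinas at 12 months. No group received a treatment. The labels grade the 12-month DBA/2J retinas as mild (both eyes of animal 4 and the right eye of animal 5), moderate (both eyes of animal 2, the right eye of animal 1 and the left eye of animal 5) or severe (both eyes of animal 3 and the left eye of animal 1). The Gpnmb+ group has no retina at 6 months, so strain and age cannot be told apart in the comparison of 6-month DBA/2J with Gpnmb+. For the same reason, age and the course of the disease cannot be told apart between DBA/2J animals of 6 and 12 months.

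AP-1 is a dimer of basic leucine zipper proteins: a Jun protein pairs with itself, with a Fos protein or with a factor such as Atf3, and the dimer binds a short palindrome in promoters and enhancers. Fos, Fosb, Jun, Junb and Atf3 belong to the immediate early genes, which many cells transcribe within minutes of a stimulus without new protein synthesis, through MAP kinases and factors such as SRF and CREB that already sit in the cell. In microglia the same genes are known to answer to inflammatory signals, and also to the stress of dissociating and sorting a tissue. All libraries here were made from sorted cells, and the effect of the sort on these genes was not tested.

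The promoters of Jun, Fos, Atf3 and Junb are shown because they carry short sequences through which these genes are known to be switched on. Each is the RefSeq sequence on GRCm38.p6, from 250 bases before to 50 bases after the annotated start, written 5′ to 3′ on the gene's strand. Capitals mark matches to the motifs searched on both strands: TGACNTCA, a palindrome of the CREB and AP-1 type; TTACNTCA, a variant of it that Jun and ATF dimers bind; TGACG, the core of the cyclic AMP response element, which can overlap the first 2; and TATAAA.

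Jun: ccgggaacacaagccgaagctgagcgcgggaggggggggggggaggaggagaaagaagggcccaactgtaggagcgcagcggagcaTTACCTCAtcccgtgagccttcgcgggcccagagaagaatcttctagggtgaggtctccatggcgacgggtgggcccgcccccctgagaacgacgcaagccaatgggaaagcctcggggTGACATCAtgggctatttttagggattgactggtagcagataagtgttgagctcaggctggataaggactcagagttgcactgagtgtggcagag

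Fos: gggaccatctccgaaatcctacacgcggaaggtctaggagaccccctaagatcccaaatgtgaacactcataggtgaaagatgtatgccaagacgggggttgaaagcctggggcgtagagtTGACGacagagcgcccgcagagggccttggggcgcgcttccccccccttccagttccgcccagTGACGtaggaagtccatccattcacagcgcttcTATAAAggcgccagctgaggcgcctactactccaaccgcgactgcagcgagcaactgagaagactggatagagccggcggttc

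Atf3: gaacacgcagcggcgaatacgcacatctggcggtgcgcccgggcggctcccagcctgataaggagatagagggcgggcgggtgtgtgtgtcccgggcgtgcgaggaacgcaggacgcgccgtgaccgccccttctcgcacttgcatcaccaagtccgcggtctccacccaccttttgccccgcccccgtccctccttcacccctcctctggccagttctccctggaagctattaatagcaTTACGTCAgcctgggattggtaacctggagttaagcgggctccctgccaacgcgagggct

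Junb: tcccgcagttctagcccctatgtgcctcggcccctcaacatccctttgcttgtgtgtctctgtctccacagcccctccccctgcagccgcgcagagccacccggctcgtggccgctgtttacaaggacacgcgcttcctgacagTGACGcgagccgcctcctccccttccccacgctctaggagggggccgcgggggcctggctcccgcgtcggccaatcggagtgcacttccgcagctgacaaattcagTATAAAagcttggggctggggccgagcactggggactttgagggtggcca

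The Jun window, chr4:95052173-95052472 on the minus strand, held TGACATCA at 45 bases and TTACCTCA at 164 bases before the start. Both are sites through which Jun protein is known to act on its own gene. The Fos window, chr12:85473640-85473939 on the plus strand, held TGACG at 66 and at 129 bases and TATAAA at 33 bases before the start. Its serum response element, known to bind SRF, lies further upstream than this window reaches. In Atf3, chr1:191183284-191183583 on the minus strand, TTACGTCA stood 10 bases before the start, and its reverse complement holds TGACG. In Junb, chr8:84978699-84978998 on the minus strand, TGACG stood 106 bases before the RefSeq start and TATAAA began at that start. Fosb held 1 TGACG, at 60 bases before its start, and the windows of Fosl2 and Jund held none of the motifs. Across 32544 distinct RefSeq promoters of the same length, TGACG was present in 20.9% (4 of the 7 genes), TTACNTCA in 3.27% (2 of 7), TGACNTCA in 8.62% (1 of 7) and TATAAA in 13.6% (2 of 7). TGANTCA, a pattern wider than the AP-1 consensus because any middle base counts, was in 7.79% of promoters and in 0 of the 7. The CArG box that SRF binds was in 1.64% and in 0 of the 7. A match is a description of the letters in this window. The RefSeq windows of Atf3 and Fosl2 lie inside the GENCODE genes, and that of Jund ends upstream of the GENCODE gene. The RefSeq start of Junb lies upstream of the GENCODE start and that of Fosb just downstream, so distances from the GENCODE starts differ from those given. Whether any of these starts is the one used in microglia was not tested.

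The libraries differed in depth. The total count ran from 1706745 to 20081047 in 12-month DBA/2J retinas, from 977873 to 14845259 in Gpnmb+ retinas and from 12043862 to 17992997 in 6-month retinas. Genes with a count were 10693 to 15037 in 12-month DBA/2J, 3466 to 14460 in Gpnmb+ and 13809 to 16706 in 6-month retinas. The 5 retinas under 10000 genes were all Gpnmb+: both eyes of animals 1 and 2 and the right eye of animal 3. The counts and medians of the 7 genes in each comparison of groups or grades that uses Gpnmb+ are therefore also given without them, which leaves 3 Gpnmb+ animals. Gpnmb itself was at 0 counts in 8 of 9 Gpnmb+ retinas (30.9 CPM in the other) and in all 15 DBA/2J retinas, so its level did not check the labels. Microglial markers were high in all groups, with a summed level of 10 markers of 27197 to 37156 CPM in 12-month DBA/2J, 18721 to 32825 in Gpnmb+ and 30602 to 33590 in 6-month animals. The lowest of these sums were those of Gpnmb+ animals 1 and 2, at 21064 and 18721 CPM. However, Fcrls, the gene of the sort marker, reached at most 81.9 CPM and was at 0 in 1 animal. The 12 rod photoreceptor markers summed to 519 to 2808 CPM in 12-month DBA/2J, 427 to 9397 CPM in Gpnmb+ (highest in animal 2) and 208 to 2214 CPM in 6-month animals. Ganglion cell markers summed to at most 3.66 CPM in any animal. The 6 monocyte markers summed to 1.87 to 89.2 CPM in 12-month DBA/2J, 1.54 to 29.2 CPM in Gpnmb+ and 6.47 to 31.8 CPM in 6-month animals, with Chil3 at 0 throughout and Ly6c2 at 0 in both DBA/2J groups. The 6 neutrophil markers summed to 196 to 468 CPM in 12-month DBA/2J, 146 to 541 CPM in Gpnmb+ and 369 to 519 CPM in 6-month animals, with S100a8, S100a9, Retnlg and Mmp8 at 0 throughout, and Csf3r was the 1 neutrophil marker that passed the filter. Border macrophage markers summed to 12.1 to 157 CPM in 12-month DBA/2J, at most 120 CPM in Gpnmb+ and at most 89.9 CPM in 6-month animals, and endothelial markers to at most 110 CPM in any animal. Markers of Muller glia and astrocytes summed to 278 to 419 CPM in 12-month DBA/2J, 144 to 698 CPM in Gpnmb+ (highest in animal 1) and 259 to 399 CPM in 6-month animals. Of these markers, Gfap was at 0 throughout and Clu at 0 in Gpnmb+ and 6-month animals. Only Slc1a3 and Glul passed the filter in the main fit. The part of these differences in the results below was not tested. In such bulk samples, fewer cells of a type and less RNA per cell cannot be told apart.

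Between genes, levels can be compared in TPM, the deposited transcript level, which takes gene length into account. In 12-month DBA/2J retinas the median was 1807 TPM for Junb, 991 for Fos and 949.7 for Jun, then 61.0 for Atf3, 25.8 for Fosb, 5.12 for Fosl2 and 1.39 for Jund. In Gpnmb+ retinas the medians were 2666 for Junb, 2115 for Jun, 1711 for Fos, 264 for Atf3, 66.8 for Fosb, 14.6 for Fosl2 and 5.54 for Jund. At 6 months they were 2018, 1413 and 1214 for Junb, Jun and Fos, 163 for Atf3, 66.2 for Fosb, 14.8 for Fosl2 and 5.51 for Jund. Junb, Jun and Fos thus stood together at the top and their ranges overlapped in every group, and Fosl2 and Jund stood lowest. Jund, often described as the constitutive Jun gene, rested on 24 to 89 counts per 12-month DBA/2J animal, against 16450 to 78359 for Jun, so its values are the least precise of the set.

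The first comparison, of 12-month DBA/2J with Gpnmb+ animals, asks how the microglia of the glaucoma strain differ from those of the strain with working Gpnmb at the same age. Gpnmb genotype and glaucoma differ together between these groups, so their parts cannot be told apart. All 7 genes had lower fitted levels in DBA/2J, with a median log2 fold change of -1.27, against 0.05 over all 12977 genes tested, of which 47.6% were negative. No gene of the 12977 was called at an adjusted p under 0.05 (0.0%), so none of the 7 was. At an unadjusted p under 0.05, 6 of the 7 were lower, all but Fosl2, where the background was 2.45% of all genes (318 lower, beside 357, or 2.75%, higher). The 7 genes were chosen with earlier results of these data known, so this count is a description and not an independent excess over the background. Values per animal are CPM, counts divided by a library total and multiplied by 1e6, summed over the eyes of an animal and scaled by the TMM method, and they are given in the order of animals 1 to 5.

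**Figure D1:**
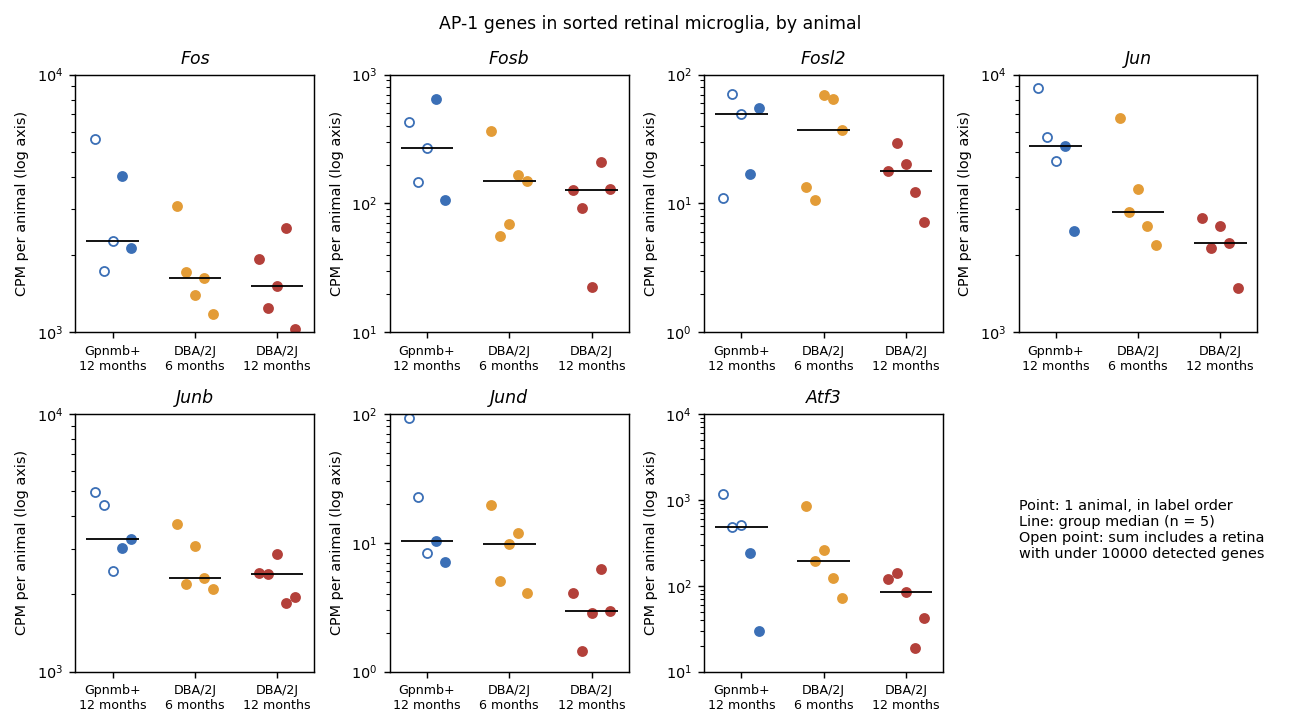
Level of each AP-1 gene per animal, in CPM on a log axis, in Gpnmb+ and DBA/2J animals of 12 months and DBA/2J animals of 6 months; lines are medians of 5 animals and open points are sums that include a retina under 10000 detected genes. For Jund the 12-month DBA/2J animals, at 1.45 to 6.24 CPM, all lie below the Gpnmb+ animals, at 7.09 to 93.5 CPM, while in the other 6 genes the groups overlap.

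Among the Jun genes, Jun encodes the partner that most AP-1 dimers contain. It measured 2772, 2115, 2588, 2231 and 1481 CPM in 12-month DBA/2J animals, against 8863, 5716, 4600, 5279 and 2467 CPM in Gpnmb+ animals. All Gpnmb+ animals but animal 5 lay above every DBA/2J animal. Group means were 2237 ± 499 and 5385 ± 2310 CPM (SD, n = 5), and the log2 fold change was -1.27 ± 0.32 (SE, edgeR adjusted p = 0.433). Junb, whose protein pairs with Fos proteins and activates some sites less strongly than Jun, measured 2414, 2383, 2850, 1846 and 1951 CPM against 4977, 4424, 2464, 3014 and 3269 CPM. Only Gpnmb+ animal 3 lay within the DBA/2J range, and the log2 fold change was -0.67 ± 0.21 (edgeR adjusted p = 0.567). Jund measured 4.04, 1.45, 2.84, 6.24 and 2.95 CPM against 93.5, 22.6, 8.40, 10.3 and 7.09 CPM. It was the only one of the 7 whose groups did not overlap, as was true of 0.285% of all genes tested (37 of 12977) in this direction. Its log2 fold change was -3.02 ± 0.95 (edgeR adjusted p = 0.567).

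Among the Fos genes, whose proteins need a Jun partner to bind DNA, Fos measured 1930, 1239, 1511, 2549 and 1033 CPM in DBA/2J against 5598, 1724, 2258, 4043 and 2128 CPM in Gpnmb+ animals. The 2 highest Gpnmb+ animals lay above every DBA/2J animal and the rest overlapped. The log2 fold change was -0.93 ± 0.33 (edgeR adjusted p = 0.635). Fosb, a stimulus-induced relative, measured 126, 92.6, 22.3, 210 and 130 CPM against 429, 147, 269, 642 and 107 CPM, with 3 Gpnmb+ animals above all DBA/2J animals. Its log2 fold change was -1.46 ± 0.59 (edgeR adjusted p = 0.784). Fosl2, a slower Fos relative that lacks a strong activation domain, measured 18.0, 29.6, 20.4, 12.2 and 7.17 CPM against 11.1, 71.1, 49.1, 16.8 and 55.2 CPM. Gpnmb+ animals 1 and 4 lay within the DBA/2J range, and the log2 fold change of -1.22 ± 0.68 (edgeR adjusted p = 0.999) was the one that did not reach an unadjusted p under 0.05.

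Atf3, a stress-induced factor that pairs with Jun proteins and can repress its targets, varied widely between animals, with means of 80.7 ± 50.8 CPM in DBA/2J and 486 ± 432 CPM in Gpnmb+ animals (SD, n = 5). It measured 119, 140, 83.8, 19.0 and 41.9 CPM in DBA/2J against 1177, 478, 504, 242 and 29.4 CPM in Gpnmb+ animals. Gpnmb+ animals 1 to 4 lay above every DBA/2J animal and Gpnmb+ animal 5 lay among them. The log2 fold change was -2.59 ± 0.78 (edgeR adjusted p = 0.567).

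DESeq2, the second count model, called 108 genes in this comparison (0.839% of 12869), and 3 of the 7 were among them, with adjusted p = 0.0195 for Jun, 0.0208 for Jund and 0.0247 for Atf3. Without the 5 retinas under 10000 genes, all 7 fold changes were still negative, with a median of -1.20, but 2 of the 7 were lower at an unadjusted p under 0.05, against 2.65% of all genes: Jun at -0.85 ± 0.33 (edgeR adjusted p = 0.661) and Fos at -0.74 ± 0.33 (adjusted p = 0.665). Junb was then -0.36 ± 0.20, Jund -1.24 ± 0.94 and Atf3 -1.30 ± 0.78, while Fosb at -1.39 ± 0.68 and Fosl2 at -1.20 ± 0.66 stayed near their values with all retinas. Leaving out Gpnmb+ animal 1 alone moved Jund to -1.79 and Fos to -0.62, with 4 of the 7 lower at an unadjusted p under 0.05, where 2.97% of all genes were.

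**Figure D2:**
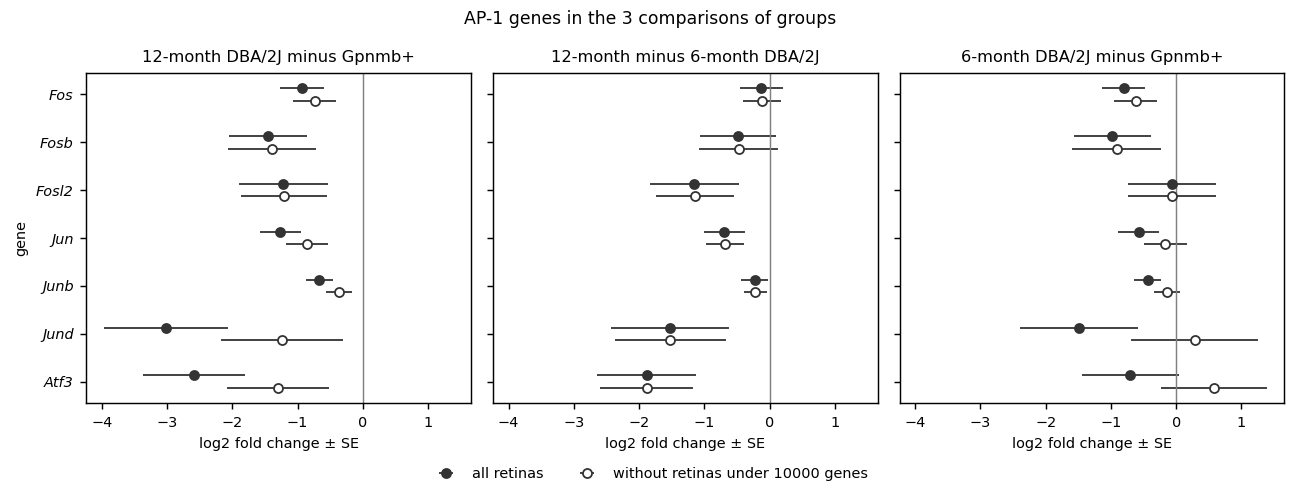
Log2 fold change of each AP-1 gene with its standard error in the 3 comparisons of groups, from all retinas (filled points) and without the 5 Gpnmb+ retinas under 10000 genes (open points). In 12-month DBA/2J against Gpnmb+ all points are negative in both fits and Jund moves most, from -3.02 to -1.24, while in 6-month DBA/2J against Gpnmb+ Jund and Atf3 move from below to above 0.

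By retina, Atf3, Jund, Jun, Fosb and Fosl2 had higher medians in the thin Gpnmb+ libraries than in the others. Fos and Junb had lower ones. In CPM of the library total, Atf3 ran from 80.8 to 1312 (median 618) in the 5 Gpnmb+ retinas under 10000 genes and from 23.1 to 334 (median 144) in the other 4. Jund ran from 8.95 to 118 (median 26.6) and from 6.64 to 10.6 (median 7.97) in the same sets, and Jun from 3652 to 7836 (median 5578) and from 2456 to 5450 (median 3636). For Fos the ranges were 822 to 5639 and 1997 to 4174, and for Fosb 128 to 527 and 95.0 to 663, so that thin and fuller retinas overlapped widely. Medians, thin retinas first, were 2220 and 2350 for Fos and 2580 and 3272 for Junb. They were 163 and 152 for Fosb and 45.5 and 42.7 for Fosl2. The lowest Gpnmb+ retina for Jund, at 6.64 CPM (93 counts), stood just above the highest 12-month DBA/2J retina, at 6.13 CPM (38 counts). The share of all genes that separate by retina was not computed, and the eyes of an animal are not independent. Fosl2 had no count in 1 thin Gpnmb+ retina, the left eye of animal 1. In 12-month DBA/2J animals, the eyes of an animal differed by a median of 1.31-fold for Fos, 2.48-fold for Jun and 3.21-fold for Junb. The medians were 1.79-fold for Atf3, 3.85-fold for Fosl2, 3.46-fold for Fosb and 1.31-fold for Jund. The largest difference, 52.9-fold for Atf3, was in animal 4, whose right eye had 9 counts. In Gpnmb+ animals the medians were 1.59 for Fos, 1.26 for Jun, 1.59 for Junb and 2.38 for Atf3. For Fosb and Jund they were 1.79 and 1.20, and for Fosl2 1.34, without animal 1, whose left eye had no count.

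**Figure D3:**
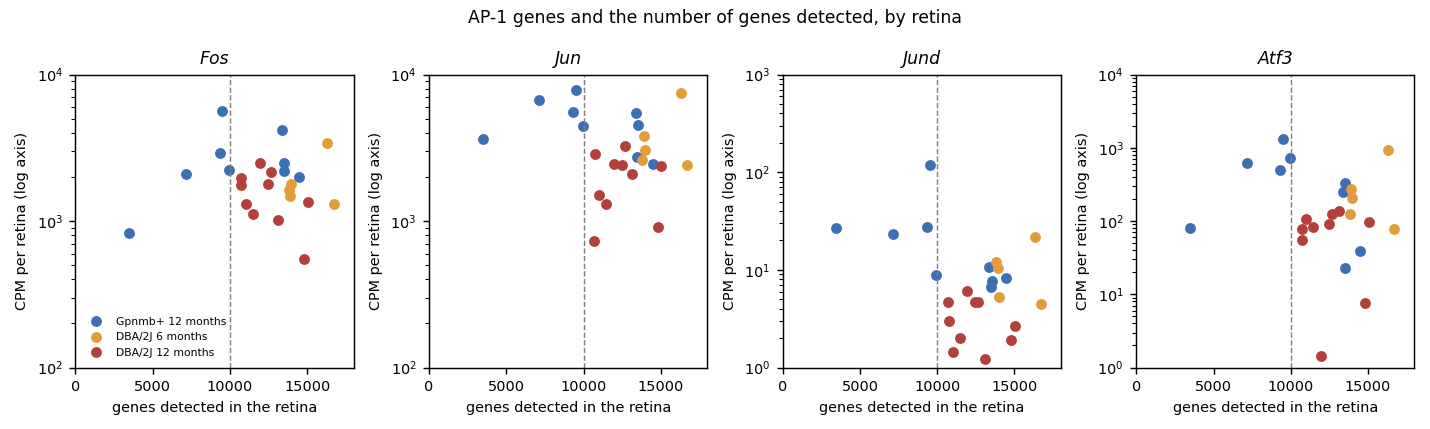
Level of Fos, Jun, Jund and Atf3 in each retina, in CPM on a log axis, against the number of genes detected in that retina, coloured by group, with a dashed line at 10000 genes. The 5 retinas left of the line are all Gpnmb+, and for Jund they reach 118 CPM against at most 10.6 CPM in the Gpnmb+ retinas to its right.

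The second comparison sets microglia of 12-month DBA/2J animals against those of other DBA/2J animals at 6 months, labelled as early disease. Without 6-month Gpnmb+ retinas, this comparison cannot tell age from the course of the disease. It shares the 12-month DBA/2J animals with the first comparison and the thin Gpnmb+ retinas are in neither of its groups, although they enter the shared filter, scaling and estimate of the spread. All 7 genes had negative fold changes, with a median of -0.69 against 0.01 over all genes, of which 49.4% were negative, and no gene was called (0.0%). At an unadjusted p under 0.05, 2 of the 7 were lower, where 1.55% of all genes were. These were Jun, at 6796, 2926, 3588, 2593 and 2181 CPM at 6 months and -0.69 ± 0.31 (edgeR adjusted p = 1.00), and Atf3, at 845, 195, 258, 123 and 71.1 CPM and -1.89 ± 0.76 (edgeR adjusted p = 1.00). Fos measured 3100, 1715, 1398, 1626 and 1181 CPM at 6 months and its fold change was -0.13 ± 0.33. Junb measured 3725, 2188, 3075, 2301 and 2099 CPM, with a fold change of -0.23 ± 0.21. Fosb, at 368, 55.6, 69.5, 166 and 150 CPM, Fosl2, at 13.3, 10.6, 69.0, 64.5 and 37.0 CPM, and Jund, at 19.7, 5.02, 9.74, 12.0 and 4.08 CPM, had fold changes of -0.48 ± 0.58, -1.15 ± 0.68 and -1.53 ± 0.90. None of the 7 had groups that did not overlap, as 1.03% of all genes did in this direction. A fit without the thin retinas gave the same median of -0.69 and again 2 of 7 lower, where 3.61% of all genes were.

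The values at 6 months depended on 1 animal. Animal 1 was the highest of the 5 for 6 of the 7 genes, all but Fosl2, and animal 5 was the lowest for 5. Without animal 1, 0 of the 7 were lower at an unadjusted p under 0.05 (1.15% of all genes) and the median was -0.31, with Jun at -0.31, Atf3 at -0.97, Fos at 0.18 and Fosb at 0.10. Without 12-month animal 4 or without 12-month animal 5 the count was also 0 of 7, where 1.41% and 2.04% of all genes were lower.

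The third comparison sets 6-month DBA/2J against Gpnmb+ animals, which it shares with the first. Again 7 of 7 fold changes were negative (48.7% of all genes were), the median was -0.70 against 0.03 over all genes, and no gene was called (0.0%). Fos, at -0.80 ± 0.33, and Junb, at -0.44 ± 0.21, were lower at an unadjusted p under 0.05 (edgeR adjusted p = 1.00 for both), where 1.57% of all genes were. The other fold changes were -0.98 ± 0.59 for Fosb, -0.57 ± 0.31 for Jun, -1.49 ± 0.90 for Jund, -0.70 ± 0.74 for Atf3 and -0.06 ± 0.67 for Fosl2. Without the 5 thin retinas 0 of the 7 were lower (1.79% of all genes), the median was -0.14, and Jund at 0.28 ± 0.97 and Atf3 at 0.58 ± 0.81 were positive. Without 6-month animal 1, 5 of the 7 were lower, where 1.87% of all genes were, and the median was -1.09. Without Gpnmb+ animal 1 (1.88% of all genes), or without 6-month animal 4 (1.4%) or animal 5 (1.87%), 0 were. The count in this comparison thus ranged from 0 to 5 with the animals kept.

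Disease grade was examined with 1 sum per animal and grade, as the eyes of DBA/2J animals 1 and 5 differ in grade, and the same Gpnmb+ animals served all 3 grades. No gene of 15965 was called against Gpnmb+ in mild, moderate or severe retinas (0.0% in each). Moderate retinas differed most in the 7 genes: 6 of 7 were lower at an unadjusted p under 0.05, all but Fosl2, where 3.71% of all genes were, and the median fold change was -1.83 against -0.02 over all genes. In mild retinas 3 were lower (Fosl2, Jun and Atf3, background 2.75%), with a median of -1.23 against -0.11. In severe retinas 1 was lower (Fosb, background 1.2%), with a median of -1.06 against -0.06, and DESeq2 gave 3 lower at that threshold, where it gave 5.75% of all genes. Without the thin retinas these counts were 1 in mild, 4 in moderate and 0 in severe, where the backgrounds were 3.62%, 4.54% and 1.56%, and the medians -0.63, -1.43 and -0.88. This fit takes the eyes of animals 1 and 5 as independent sums. It rests on 3 moderate sums but 2 mild and 2 severe sums, so the counts of the grades are not like for like. With retinas as observations and a random animal effect the counts were 0 in mild, 3 in moderate and 2 in severe retinas, with backgrounds of 1.04%, 1.08% and 0.987%.

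In moderate sums, of the right eye of animal 1, both eyes of animal 2 and the left eye of animal 5, Jun measured 1498, 2093 and 868 CPM. In mild sums of animals 4 and 5 it measured 2242 and 2266 CPM, and in severe sums of animals 1 and 3 it measured 3545 and 2599 CPM. All 3 moderate sums lay below the other 4. The log2 fold change against Gpnmb+ was -1.83 ± 0.39 in moderate, -1.23 ± 0.45 in mild and -0.78 ± 0.44 in severe retinas (edgeR adjusted p = 0.577, 0.795 and 0.981). Fos also had its 3 moderate sums below the other 4, with 1267, 1226 and 522 CPM in moderate, 2562 and 1683 CPM in mild and 2352 and 1518 CPM in severe retinas. Its fold change was -1.63 ± 0.41 in moderate, -0.55 ± 0.46 in mild and -0.69 ± 0.46 in severe retinas. Junb did not separate in this way, since the moderate sum of animal 2, at 2357 CPM, lay above the mild sum of animal 4, at 1855 CPM. The other moderate sums of Junb were 779 and 998.7 CPM, and its fold changes were -1.37 ± 0.33, -0.50 ± 0.37 and -0.19 ± 0.36 in moderate, mild and severe retinas. Fosb was lowest in the severe sum of animal 3, at 22.4 CPM, where its right eye had 28 counts. Jund, like Jun and Fos, had its moderate sums, at 2.28, 1.43 and 1.80 CPM, below the others, at 2.85 to 6.27 CPM. The share of all genes that separate in this way was not computed, so the separation of these genes has no background beside it. DESeq2 called 4 of the 7 in moderate retinas, Fos, Jun, Junb and Jund, among 296 genes in all (1.99%). Without a filter on low counts edgeR called 4 in moderate retinas, Fos, Jun, Junb and Atf3, among 33 genes in all (0.124%), and 2 in mild retinas, Jun and Atf3, among 31 (0.116%).

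A straight trend over the grades within DBA/2J left 0 of the 7 lower at an unadjusted p under 0.05 (background 0.616%) and 0 called (0.0% of 12019). Of its slopes per grade step, 3 of 7 were negative (49.9% of all genes) and the median was 0.15, from -0.66 ± 0.36 for Fosb to 0.74 ± 0.90 for Fosl2. In each of the 2 animals whose eyes differ in grade, 6 of the 7 genes, all but Fosl2, were lower in the moderate eye. This held for 26.7% of all 12019 genes for both animals together, and for 52.8% in animal 1 and 44.4% in animal 5. In animal 1 Jun measured 1316 CPM of the library total in the moderate eye and 3258 CPM in the severe eye, and Junb 685 and 3089 CPM. In animal 5 Jun measured 914 CPM in the moderate eye and 2414 CPM in the mild eye, and Fos 549.9 and 1793 CPM. Eyes of the same grade differed as much in animal 4, where both were mild and Jun measured 2451 and 732 CPM. With 2 animals there is no test of a difference between the eyes.

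**Figure D4:**
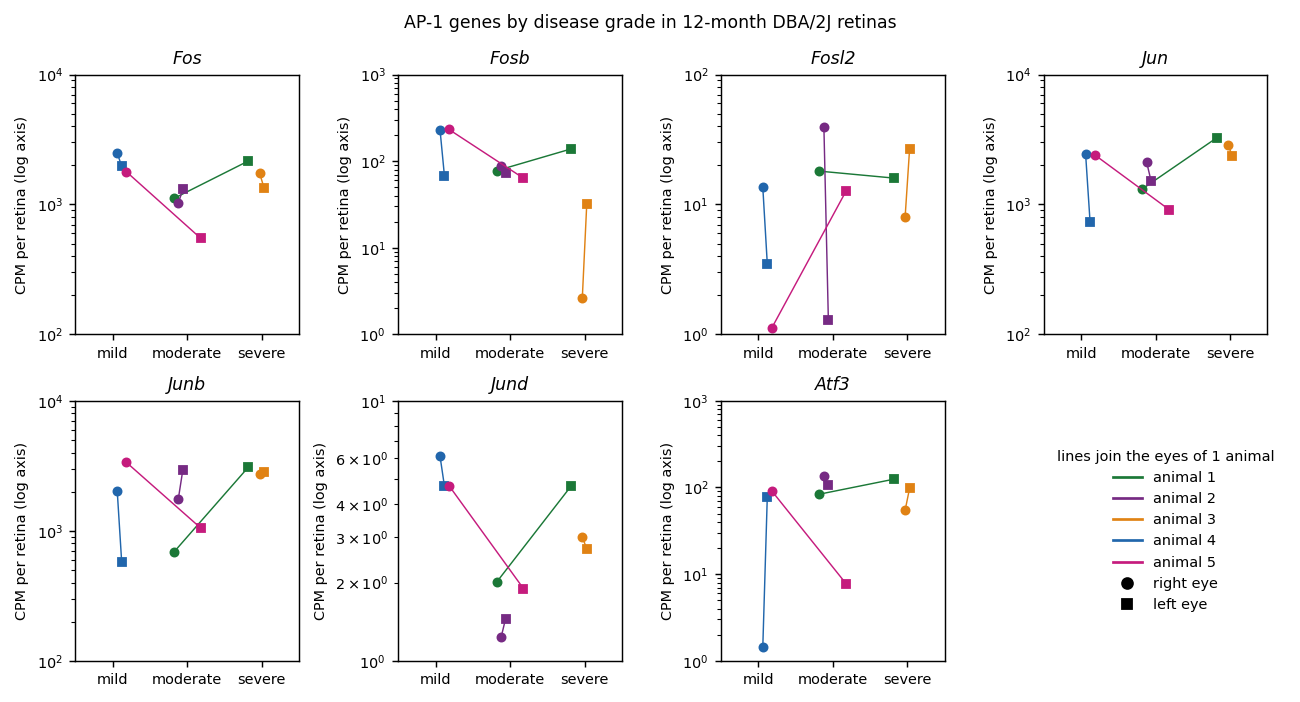
Level of each AP-1 gene in the 10 DBA/2J retinas of 12 months, in CPM of the library total on a log axis, by disease grade, with lines joining the eyes of an animal. The moderate eyes of animals 1 and 5 are lower than their fellow eyes in every panel but Fosl2, and the mild eyes of animal 4 differ from each other in Jun, from 2451 to 732 CPM.

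Across the 15 animals the 7 genes did not form 1 block. After centring within groups, the Pearson correlation of log2 CPM between pairs had a median of 0.36 and ran from -0.62 to 0.85, with 14 of 21 pairs above 0 (15 animals, which share libraries and depth between genes). The highest pair was Jun with Atf3 (0.85), followed by Jun with Jund (0.73), Jun with Junb (0.72) and Jun with Fos (0.70). Fosl2 correlated negatively with each of the other 6, from -0.62 to -0.05. Among 7021 genes with a mean of at least 4 on the log2 CPM scale, those most like the mean of the 7 included Rgs1 (r = 0.87 over 15 animals, 0.80 after centring), a regulator of G protein signalling, Klf6 (0.86 and 0.87), Rhob (0.86 and 0.73), Btg2 (0.85 and 0.70) and Adamts1 (0.79 and 0.70). The median r over all these genes was -0.18.

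The genes around AP-1 were described by lists in the 12-month comparison of DBA/2J with Gpnmb+. The lists, like the 7 genes, were chosen with earlier results of these data known, so their counts are descriptions. In the main edgeR fit no gene of these lists was called after adjustment. Among the genes picked from each list by smallest p, DESeq2 called Egr2, Ier2 and Btg2 (DESeq2 adjusted p = 0.00206, 0.0134 and 0.0362). It called 0.839% of all genes in this comparison. DESeq2 results of the other listed genes are not given here. Other immediate early genes came closest to the 7: 12 of 14 were tested, all 12 had negative fold changes, 9 were lower at an unadjusted p under 0.05 and the median was -1.29. Egr2, a zinc finger factor, had a fold change of -3.95 ± 1.02 (edgeR adjusted p = 0.526), Ier2 -1.87 ± 0.50 and Btg2, an antiproliferative gene, -1.20 ± 0.33. Their summed level was 2607 to 4482 CPM in 12-month DBA/2J, 5445 to 15688 in Gpnmb+ and 2929 to 10277 CPM at 6 months, against 4647 to 7383, 8062 to 21148 and 5723 to 14867 CPM for the 7 AP-1 genes. Without the thin retinas 3 of the 12 were lower (Klf4, Ier3 and Btg2) and the median was -0.64, with Egr2 at -2.13, Ier2 at -1.04 and Btg2 at -0.75.

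MAP kinase phosphatases, which are themselves induced by the pathway and switch its kinases off, had 7 of 10 genes tested, 7 negative and 3 lower, with a median of -0.99. Dusp6, which acts on ERK, had a fold change of -0.99 ± 0.30, Dusp1 -0.83 ± 0.33 and Dusp7 -2.12 ± 0.77 (edgeR adjusted p = 0.567, 0.747 and 0.650). Without the thin retinas 2 were lower (Dusp1 and Dusp6) and the median was -0.85. Of the kinases upstream, 14 of 18 were tested, 3 were negative and 0 passed an unadjusted p under 0.05, with a median of 0.34. Map3k1 stood at -0.80 ± 0.48, Map3k8 at 0.99 ± 0.71, and Map2k7, an activator of JNK, stood at 1.18 ± 0.90. On leaving out the thin retinas, 7 of the 14 were negative and the median was -0.01, with Map3k1 at -0.044, Map3k8 at 1.60 and Map2k7 at 0.66. Factors that act on the Fos and Jun promoters had a median of -0.24, with 0 of 8 past that threshold. Creb1, which binds the cyclic AMP response element, had a fold change of -0.79 ± 0.51, Mef2a one of -0.16 ± 0.23 and Elk4, a partner of SRF, one of -0.72 ± 0.50, which became 0.053 without the thin retinas, when the list had a median of 0.01.

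Of 13 other basic leucine zipper genes of the AP-1 kind, 11 were tested, 9 were negative and 2 were lower, Atf4 at -0.87 ± 0.33 and Mafk at -1.42 ± 0.67 (edgeR adjusted p = 0.705 and 0.953), with a median of -0.60. Maff, with group means of 0.281 and 2.21 CPM, had a fold change of -2.92 ± 1.83. Without the thin retinas 0 of the 11 were lower, the median was -0.42 and Atf4 stood at -0.42. Textbook targets of AP-1 showed no common direction: 9 of 15 were tested, 3 were negative, 0 passed the threshold and the median was 0.38. The cytokine genes stood apart from each other, Tnf at -0.87 ± 0.45 and Il1b at 2.78 ± 1.51, the latter with 47.9 ± 39.3 CPM in DBA/2J and 6.94 ± 6.94 CPM in Gpnmb+ animals (SD, n = 5). Il6, at -2.47 ± 1.97, rested on Gpnmb+ animal 4 and became 1.22 without it. With the thin retinas left out the target list had a median of 0.25, again with 3 negative and 0 past the threshold, and Tnf stood at -0.52. Heat shock chaperones, which stress induces by another route, had 11 of 11 tested, 7 negative, 1 lower and a median of -0.21. The one was Dnajb1, at -1.68 ± 0.52 (edgeR adjusted p = 0.567), followed by Hsp90aa1 at -0.85 ± 0.46 and Dnaja1 at -0.40 ± 0.34. Leaving out the thin retinas turned this list: 3 of the 11 were negative, 0 lower and 1 higher (Hspe1), and the median was 0.24, with Dnajb1 at -0.82, Hsp90aa1 at -0.02 and Dnaja1 at 0.24. Dnaja1 was 0.068 with retinas as observations. Summed chaperones were 2248 to 2993 CPM in 12-month DBA/2J, 1393 to 4902 in Gpnmb+ and 1655 to 2782 CPM at 6 months, and their part in the AP-1 values was not tested.

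**Figure D5:**
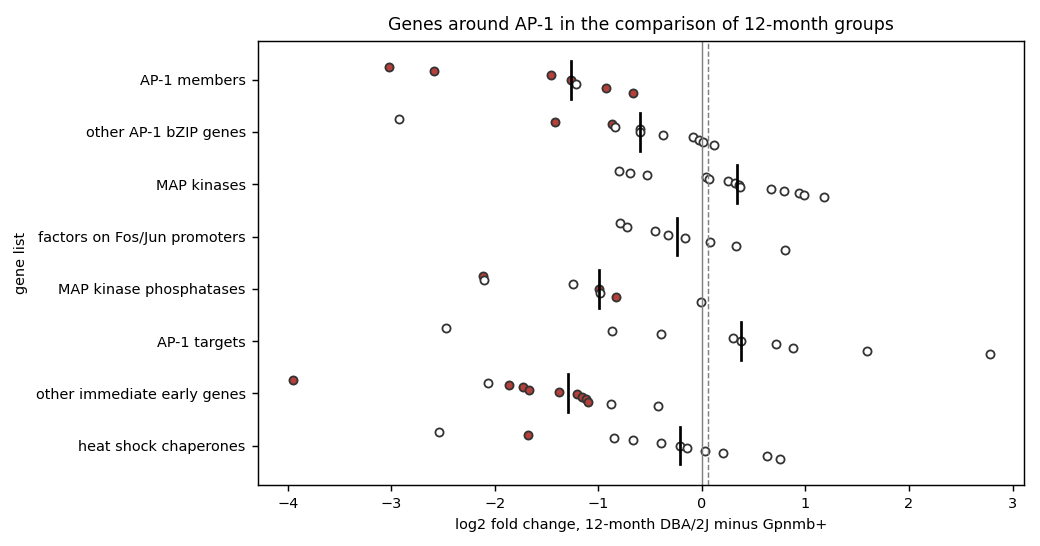
Log2 fold change of each tested gene in 8 lists, 12-month DBA/2J minus Gpnmb+, with filled points for an unadjusted p under 0.05, black bars for list medians and a dashed line for the median of all genes (0.05). The AP-1 genes and the other immediate early genes all lie left of 0, with medians of -1.27 and -1.29, and the MAP kinases and AP-1 targets have medians of 0.34 and 0.38.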

How the data were processed

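For every retina the authors deposited a table with expected counts per gene (estimated read numbers that need not be whole) and TPM, as its header shows. The submitters' processing notes list mm10, Salmon 1.4.0, DESeq2 1.30.1 and R 4.0.3 with no roles. The annotation release is not given in the sources used here, nor are filters. A table with 24 columns of per-sample values was not used. Of 47729 gene IDs, 47224 matched a symbol.

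Expected counts were rounded and summed over the eyes of an animal, or per animal and grade. All genes that passed filterByExpr (minimum count 10, minimum total 15) were fitted with edgeR 4.0.16 (R 4.3.3), TMM scaling and its quasi-likelihood test. One fit held 15 animals, another 17 sums by grade, and the trend 7 sums of 5 animals; sums of the same animal were taken as independent. P-values are two-sided, with Benjamini-Hochberg adjustment over all genes and a threshold of 0.05. The standard error is the fold change divided by the root of F. CPM per animal rests on TMM-scaled totals of kept genes, and CPM per retina on the library total. The scripts were tested on simulated counts.

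The members and the gene lists were chosen with earlier results of these data known. Named genes are the 7, up to 3 genes of each list with the smallest unadjusted p in the first comparison, and the 6 genes most like the mean of the 7. The values of 1 of these genes are not reported here. Hspe1, Klf4 and Ier3 are named beside counts and were chosen after their values were seen. Alternatives were DESeq2 1.42.0, RLE scaling, no filter, a minimum of 50 counts in 5 sums, retinas with a random animal effect (limma 3.58.1), leaving out retinas under 10000 genes, only the larger retina of each animal, only the groups compared, a block on animal number, and each animal left out in turn. No sequencing batch is named in the labels. Among 91 pairs of same-group retinas the closest differed by a chi-square of 81.8 per degree of freedom, so none was counted as a duplicate.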

Additional observations from a re-analysis of the deposited data

Results flagged for a closer look

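In 3 of the 21 sets of 5 animals examined (7 genes in 3 groups), the highest animal stood apart, with a gap to its nearest neighbour above 0.710 of the range of the group. Chance gives a gap of that size in about 1 in 20 groups where values are normally distributed. CPM was used without a log transform, for which that rate need not hold, and the sets share animals. Fos measured 3100 CPM in 6-month DBA/2J animal 1 and 1715 CPM in the next animal, a gap of 0.722 of the range. Atf3 measured 845 CPM in the same animal and 258 CPM in the next, a gap of 0.758. Jund measured 93.5 CPM in Gpnmb+ animal 1 and 22.6 CPM in the next, a gap of 0.820. Both retinas of that Gpnmb+ animal had under 10000 detected genes, whereas the retina of 6-month animal 1 was not among the thin libraries.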

How the results depend on the processing

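In 12-month DBA/2J against Gpnmb+, the fold changes of the 7 genes kept their direction in all 168 values under the alternatives, and 3 of them, under DESeq2, passed an adjusted p under 0.05. The number of genes called there was 0 with all animals and 0 to 1 when an animal was left out, 108 with DESeq2 and 8 with retinas as observations and a random animal effect, and without the retinas under 10000 genes the number of AP-1 genes lower at an unadjusted p under 0.05 fell from 6 to 2. For 12 against 6 months, 62 genes were called by DESeq2, 2 without a filter and 5 with the random effect, and 0 of the 7 were lower with the random effect or with only the larger retina of each animal (0 to 2 on leaving out animals). Of all genes, 846 of 13185 were lower with the random effect and 153 of 12528 with the larger retina. For 6-month DBA/2J against Gpnmb+, 57 were called by DESeq2 and 40 with the random effect. The 7 then counted 1 lower with the random effect or only the groups compared, and 0 without thin retinas or with the larger retina (0 to 5 on leaving out animals). Over all genes these fits gave 54 of 13185, 107 of 11614, 255 of 14282 and 93 of 12528 lower, in that order.

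For mild retinas DESeq2 called 599, no filter 31, the random effect 3 and the larger retina 2 (0 to 2 on leaving out animals), with 0 of the 7 lower under the random effect (1.04% of all genes) and 1 without thin retinas (3.62%). For moderate retinas the calls were 296, 33 and 13 under DESeq2, no filter and the random effect (0 to 4 on leaving out animals), with 3 of the 7 lower under the random effect (1.08% of all genes) and 4 of the 7 called by DESeq2 and also without a filter. For severe retinas they were 280, 10 and 32, with 3, 4 and 2 of the 7 lower, and 0 without thin retinas, with the larger retina or with only the groups compared (0 to 3 on leaving out animals). Of all genes, 856 of 14884, 364 of 26664 and 145 of 14685 were lower in the first 3 of these fits. In the last 3 it was 246 of 15730, 131 of 15598 and 100 of 13387. The trend had 26, 6 and 2 calls, with 1 of the 7 lower under the random effect, where 339 of 11227 genes were (0 to 1 of the 7 on leaving out animals). The causes were not tested.

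Directions turned in few cases. For 6-month DBA/2J against Gpnmb+, Fosl2 was 0.33 with the random effect, 0.26 with the larger retina and -0.37 to 0.23 on leaving out animals, Atf3 was 0.35 with the random effect and 0.58 without thin retinas, and Jund was 0.28 without them. Junb in severe retinas was 0.063 without thin retinas. On leaving out animals, Fos ran from -0.34 to 0.18 and Fosb from -0.80 to 0.10 for 12 against 6 months, and in the trend Fos ran from -0.36 to 0.21 and Jund from -0.58 to 0.063. In the first comparison Elk4 was 0.053 without thin retinas, Dnaja1 0.068 with the random effect and 0.24 without thin retinas, Mef2a -0.32 to 0.10 and Il6 -3.14 to 1.22 on leaving out animals. The random effect also moved the median of all genes, from 0.05 to 0.59 in the first comparison and from 0.03 to 1.09 in 6-month DBA/2J against Gpnmb+, where the median of the 7 was -1.25 and -0.26.

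Animal numbers name different animals in each group: over 15 same-numbered pairs the correlation of deviations ran from -0.04 to 0.10, and 4 of 15 animals correlated best with their own number. With the number as a replicate block, 4 genes were called in moderate retinas, Jun among them (edgeR adjusted p = 0.0137), and 1 in severe retinas. The 7 then counted 4 lower for 6-month DBA/2J against Gpnmb+, 1 in mild and 4 in severe retinas. Of all genes, 129 of 12977, 255 of 15965 and 97 of 15965 were lower at that threshold in the same order. Fosl2 was then 0.014 for 6-month DBA/2J against Gpnmb+, and the trends of Jun and Atf3 were -0.091 and -1.53.

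The precision is limited by 5 animals a group, by the 5 thin Gpnmb+ libraries and, for Jund, by as few as 24 counts per animal. The trend has no alternative without thin retinas, since no 12-month DBA/2J retina had under 10000 genes.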
